A study of Mus musculus with 37 samples.

Results

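The 39 genes described here are interferon-stimulated genes, chosen by symbol from the 56748 genes of a left ventricular RNA-seq table, and 38 of them passed the filter on low values (at least 0.5 FPKM in at least 4 libraries), which 16530 genes of the table passed in all. FPKM gives fragments counted on a gene, divided by its length in kilobases and by a size of the library in units of 1e6 fragments. The one gene that did not pass was Oas3. The tissue came from C57BL/6J mice of both sexes, 8 to 10 weeks old, with no engineered allele in any group. Naïve mice (n = 5) received isoflurane anaesthesia only. Adr mice, which the sample labels call sham, were also intubated and ventilated, received saline into the left ventricle and, after 8 min, adrenaline. Arrest mice received potassium chloride into the left ventricle, which stopped the heart for 8 min, followed by adrenaline and chest compressions. Both arms were sampled at 4 times (0.5, 1, 3 days and, last, 7 days) with 4 libraries each, so that 37 libraries fell into 9 groups. Anaesthesia was shared by all groups, and adrenaline by all groups except Naïve. The comparison of Adr with Naïve asks what the procedure and adrenaline do, and that of Arrest with time-matched Adr asks what asystole and resuscitation add. Each library came from left ventricular tissue without the apex, so the values are averages over cardiomyocytes, endothelial cells, fibroblasts and leukocytes, and fewer cells of a type cannot be told apart from less RNA per cell.

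Type I interferons are secreted when a cell senses foreign or misplaced nucleic acid. They bind the IFNAR1 and IFNAR2 receptor and activate a complex with STAT2 and IRF9 that binds the interferon-stimulated response element (ISRE) in the promoters of its target genes. Interferon gamma binds IFNGR1 and IFNGR2 and acts through another promoter element, the gamma-activated site (GAS). In the heart the pathway is best known from viral myocarditis and from macrophages that take up DNA of dying cardiomyocytes after infarction.

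Promoters of many of these genes are known to hold an ISRE. RefSeq promoter sequences (build GRCm38.p6, 250 bases before to 50 bases after the start site) were found for 29 of the 39 genes. The core of the ISRE was searched as GAAANNGAAA on both strands, where TTTCNNTTTC is the same core read on the other strand, and overlapping matches were counted. It was present in the promoters of 15 of the 29 genes (51.7%), against 3.99% of the 27025 genes with a promoter sequence. The core of the GAS, TTCNNNGAA, which reads the same on both strands, was present in 7 of the 29 genes (24.1%), against 9.55% of all genes. Stretches of 100 bases before the start site are printed 5′ to 3′ on the strand of the gene, in lower case with each ISRE core in capitals, for genes on which the results below turn: Isg15 (chr4:156200836-156200935, minus strand), Ifit1 (chr19:34640749-34640848, plus strand), Ifit3 (chr19:34583345-34583444, plus strand), Ifit3b (chr19:34607741-34607840, plus strand), Gbp2 (chr3:142620559-142620658, plus strand), Gbp3 (chr3:142559944-142560043, plus strand), Bst2 (chr8:71537545-71537644, minus strand) and, as the gene called in more than 1 comparison, Tnfsf10 (chr3:27316977-27317076, plus strand).
Isg15: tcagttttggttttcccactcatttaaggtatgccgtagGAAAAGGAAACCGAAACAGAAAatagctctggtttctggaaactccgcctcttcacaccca
Ifit1: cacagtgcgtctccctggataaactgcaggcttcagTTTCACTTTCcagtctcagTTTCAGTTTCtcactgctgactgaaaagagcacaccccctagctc
Ifit3: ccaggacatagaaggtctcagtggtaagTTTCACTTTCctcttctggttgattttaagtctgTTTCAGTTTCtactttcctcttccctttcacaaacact
Ifit3b: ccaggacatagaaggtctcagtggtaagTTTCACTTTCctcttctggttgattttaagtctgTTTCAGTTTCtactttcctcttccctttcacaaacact
Gbp2: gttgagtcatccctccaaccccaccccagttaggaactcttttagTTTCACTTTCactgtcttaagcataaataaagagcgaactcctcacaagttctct
Gbp3: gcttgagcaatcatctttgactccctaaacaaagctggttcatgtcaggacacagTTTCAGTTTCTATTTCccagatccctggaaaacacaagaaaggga
Bst2: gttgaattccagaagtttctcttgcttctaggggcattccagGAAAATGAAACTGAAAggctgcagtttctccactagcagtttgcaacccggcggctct
Tnfsf10: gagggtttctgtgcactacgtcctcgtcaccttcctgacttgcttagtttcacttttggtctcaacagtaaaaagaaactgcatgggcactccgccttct

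Isg15 held 3 overlapping cores, Bst2 and Gbp3 held 2 overlapping cores each, and Gbp2 held 1. Ifit1, Ifit3 and Ifit3b held 2 separate cores each. The printed stretches of Ifit3 and Ifit3b were the same at all 100 positions, and fragments of these near-identical copies may have been divided between them by the counting. No core was found in the promoter of Tnfsf10, and a promoter of Gbp4 was not in the table. Neither core was found in the promoter of Irf7. A match is a description of letters, not of binding.

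The libraries held between 13.2 and 30.2 M fragments counted on genes (M, 1e6 fragments). Before any group was compared, 1 library stood apart most. Replicate 3 of the Adr group at 3 days had 9.36% of its fragments on mitochondrial genes, against 20.8% to 30.9% in the other 36 libraries. It was the highest of the 37 libraries in 31 of the 38 tested interferon response genes (81.6%), whereas it was the highest in 15.0% of all genes tested. Its level exceeded the median of the other 36 libraries by more than 2-fold in 27 of the 38 genes (median ratio 2.72), against 14.2% of all genes (median ratio 1.00). The largest ratios were those of Mx1 (15.6), Zbp1 (14.2), Oasl1 (10.97), Dhx58 (10.4), Isg15 (8.98) and Oas1a (8.96), and the smallest were those of Gbp4 (1.43), Tnfsf10 (1.35) and Irf1 (1.30). Naïve replicate 4 had the fewest genes above 0 (13475, others at least 15398). It held the lowest value of 8 of the 38 genes and of 13.9% of all genes. It set the low end of the Naïve range of Oasl2, Ifi35 and Irf7.

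Levels of cell type markers in replicate 3 of Adr at 3 days differed as well. The summed level of 6 cardiomyocyte markers was 1635 FPKM in it and 4545 to 9852 FPKM in the other libraries. The summed level of 8 macrophage markers was 934 FPKM against 148 to 482, that of 5 monocyte markers was 64.6 FPKM against 1.41 to 26.0, and that of 5 fibroblast markers was 860 FPKM against 181 to 482. Of the 8 macrophage markers, 6 were at their highest of all libraries there. Lyve1 (11.6 FPKM, others 11.3 to 127) and Cd163 (4.37 FPKM, others 3.34 to 17.5) were in the low part of their ranges. Of the fibroblast markers only the collagens Col1a1 (389 FPKM) and Col3a1 (319 FPKM) were at their highest, and Dcn was at 135 FPKM (others 118 to 326). The red blood cell sum was the lowest (796 FPKM, others 887 to 5147) and the T and NK cell sum the highest (6.93 FPKM, others 0 to 4.19). The part of these cells in the interferon values was not tested. The study set an Adr sample of this time aside for poor quality without naming it, and the sample labels set no library of the group apart, so all 4 were used, and each result that rests on this library is given with and without it.

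**Figure D1:**
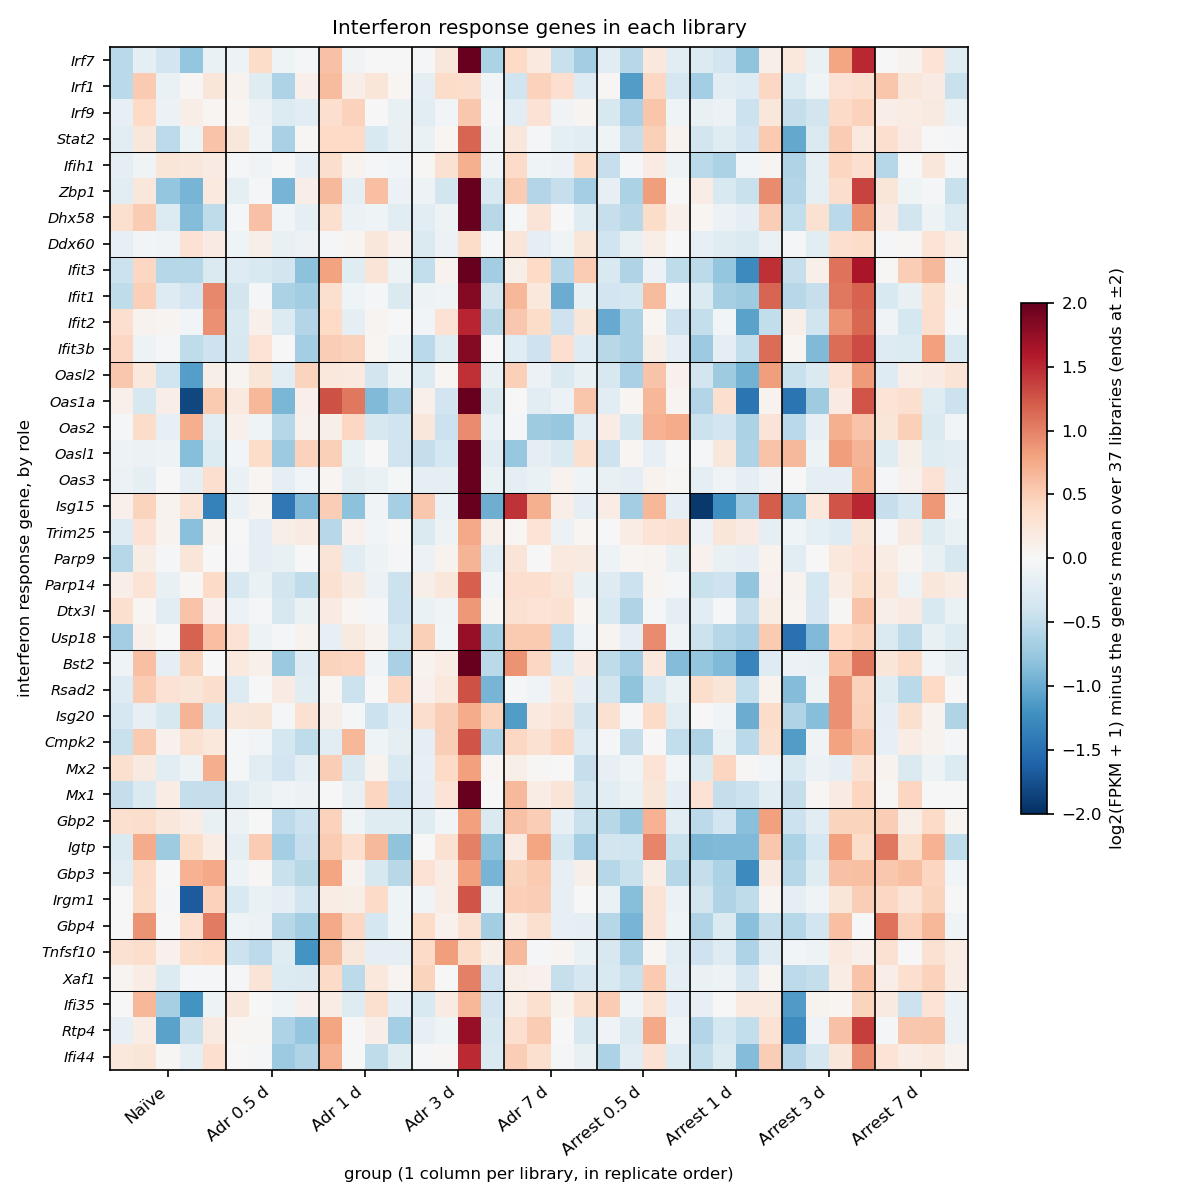
Heat map of the 39 interferon response genes (rows, ordered by role) in the 37 libraries (columns, by group). Colour gives log2(FPKM + 1) minus the mean of the gene over all libraries, with the scale ending at ±2. Replicate 3 of Adr at 3 days is above the mean in most rows (median 1.22), and replicates 4 and 3 of Arrest at 3 days have the next highest medians (0.53 and 0.41).

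Outside that library, the level of the genes as a set varied between libraries of 1 group. The median over the 38 genes of log2(FPKM + 1), taken as the difference from the mean of each gene, was 1.22 in that library and ranged from -0.58 (Arrest at 1 day, replicate 3) to 0.53 (Arrest at 3 days, replicate 4) in the others. In the Naïve group it ranged from -0.13 to 0.26. Within Arrest at 3 days it was -0.48 and -0.20 in replicates 1 and 2 and 0.41 and 0.53 in replicates 3 and 4, and within Arrest at 1 day it was -0.39, -0.27, -0.58 and 0.20. The group means lay between -0.26 (Arrest at 1 day) and 0.22 (Adr at 3 days). The mean of Adr at 3 days was -0.11 without replicate 3. The pooled standard deviation of the library medians within groups was 0.34 with that library and 0.27 without it.

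**Figure D2:**
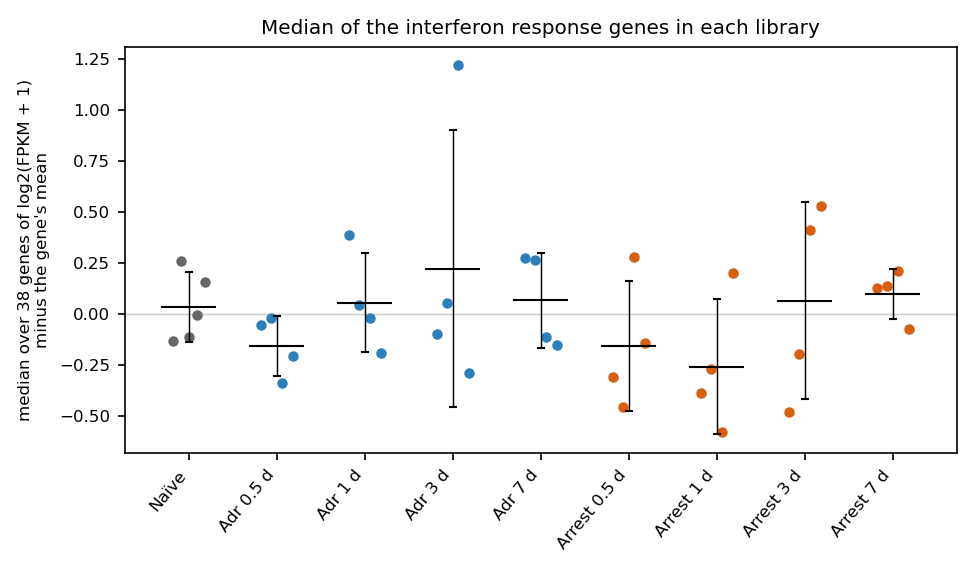
Median over the 38 tested interferon response genes of log2(FPKM + 1) minus the gene's mean, 1 point per library, with the group mean (line) and standard deviation (bar). Naïve is grey, Adr blue and Arrest orange. Every group overlaps Naïve, and the highest point is Adr at 3 days, replicate 3, at 1.22.

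Few of the genes changed significantly after either procedure. Tests were made with limma on log2(FPKM + 1) across all 16530 genes, and Benjamini-Hochberg adjustment covered all of them, with calls made at 0.05. Fold changes on this scale understate the change of genes with low levels. Among the 38 genes, Tnfsf10 alone passed in Adr at 0.5 days against Naïve (2.63% of the genes, against 0.188% of all genes tested), and Tnfsf10 and Gbp4 passed in Arrest at 1 day against Naïve (5.26%, against 7.11% of all genes tested). All 3 calls were decreases. The deviations of a library from the gene means correlated with gene length (Spearman) at 0.08 to 0.26 in Naïve. The range was -0.23 to -0.07 in Adr at 0.5 days and -0.26 to -0.11 in Arrest at 1 day, so neither overlapped Naïve. Tnfsf10 is 5266 and Gbp4 7494 bases long. With the length trend removed the calls stayed, at adjusted p = 0.047 and 0.031 for Tnfsf10 and 0.0496 for Gbp4. The share called in Arrest at 1 day was near that of all genes. Without replicate 3 of Adr at 3 days, 1 of the 38 passed in Adr at 0.5 days, against 1.43% of all genes. In Arrest at 1 day 4 of the 38 then passed, against 10.4% of all genes.

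With all libraries in the model, limma called none of the 38 genes in the other comparisons. At 0.5 days, 3.21% of all genes were called in Arrest against Naïve, and 6 of the 38 reached 0.05 before adjustment, against 18.2% of all genes. In Adr at 1 day 0.69% of all genes were called, and none of the 38 reached 0.05 before adjustment, against 14.7% of all genes. In Arrest at 3 days 0.139% of all genes were called, and 2 of the 38 did so (13.7% of all genes). Adr at 3 days, Adr at 7 days and Arrest at 7 days gave 0% called over all genes, with 2, 0 and 0 of the 38 reaching 0.05 before adjustment (13.9%, 6.15% and 5.15% of all genes).

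No difference between Arrest and time-matched Adr passed the test for any of the genes. Over all genes the share called was 0% at 0.5, 1 and 3 days and 0.00605% at 7 days. The number of the 38 that reached 0.05 before adjustment was 0 at 0.5 days, 3 at 1 day (Tnfsf10, Gbp4 and Bst2), 0 at 3 days and 0 at 7 days. Over all genes that share was 3.86%, 6.59%, 5.37% and 2.52%, so that the 3 genes at 1 day (7.89% of the 38) were near the background. Without replicate 3 of Adr at 3 days, 5 of the 38 reached 0.05 before adjustment at 1 day (8.47% of all genes) and 3 at 3 days (5.67%). Adr at 1 day against Adr at 7 days (0.0423% of all genes called) gave none of the 38 by either measure (9.68% of all genes before adjustment). Arrest at 1 day against Arrest at 7 days (1.89% of all genes called) gave none after adjustment and 7 of the 38 before adjustment, which were Tnfsf10, Gbp4, Gbp3, Igtp, Irgm1, Bst2 and Parp14, all lower at 1 day. These were 18.4% of the 38, against 14.9% of all genes. Without replicate 3 of Adr at 3 days, Gbp4 passed here (3.99% of all genes called), and 8 of the 38 reached 0.05 before adjustment (17.5% of all genes).

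The median log2 fold change of the 38 genes against Naïve was -0.16 in Adr at 0.5 days and -0.18 in Arrest at 1 day, where 28 and 29 of the 38 were lower (73.7% and 76.3%, against 43.9% and 45.4% of all genes). It was -0.09 in Arrest at 0.5 days (24 lower), 0.01 in Adr at 1 day (18 lower), and 0.02, 0.07 and 0.07 in Adr at 7 days, Arrest at 3 days and Arrest at 7 days. The median over all genes lay between 0 and 0.04 in these comparisons. In Adr at 3 days the median was 0.24 with all libraries and -0.09 without replicate 3, so that the direction rested on that library. These comparisons share the Naïve libraries and are not independent of each other. Nor are the genes, whose levels varied together between libraries, and the library medians of every group overlapped Naïve.

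Between the arms at 1 day the median was -0.28, and 32 of the 38 genes were lower in Arrest than in Adr (84.2%, against 50.3% of all genes). It was 0.05 at 0.5 days and 0.05 at 7 days. At 3 days it was -0.12 with replicate 3 of Adr and 0.17 without it. Within Arrest, the genes at 1 day lay below those at 7 days with a median of -0.32 and 29 of 38 lower (49.5% of all genes lower). This comparison and that between the arms at 1 day share the Arrest libraries at 1 day. In both, the medians of single libraries overlapped (Arrest at 1 day -0.58 to 0.20, Adr at 1 day -0.19 to 0.39, Arrest at 7 days -0.07 to 0.21). Levels of the genes varied together between libraries, so the numbers of lower genes are not counts of independent results. The 95% interval of a single gene spanned about ±0.64 for the median gene in such a comparison of 4 with 4 libraries, and wider or narrower for genes with more or less spread between libraries.

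**Figure D3:**
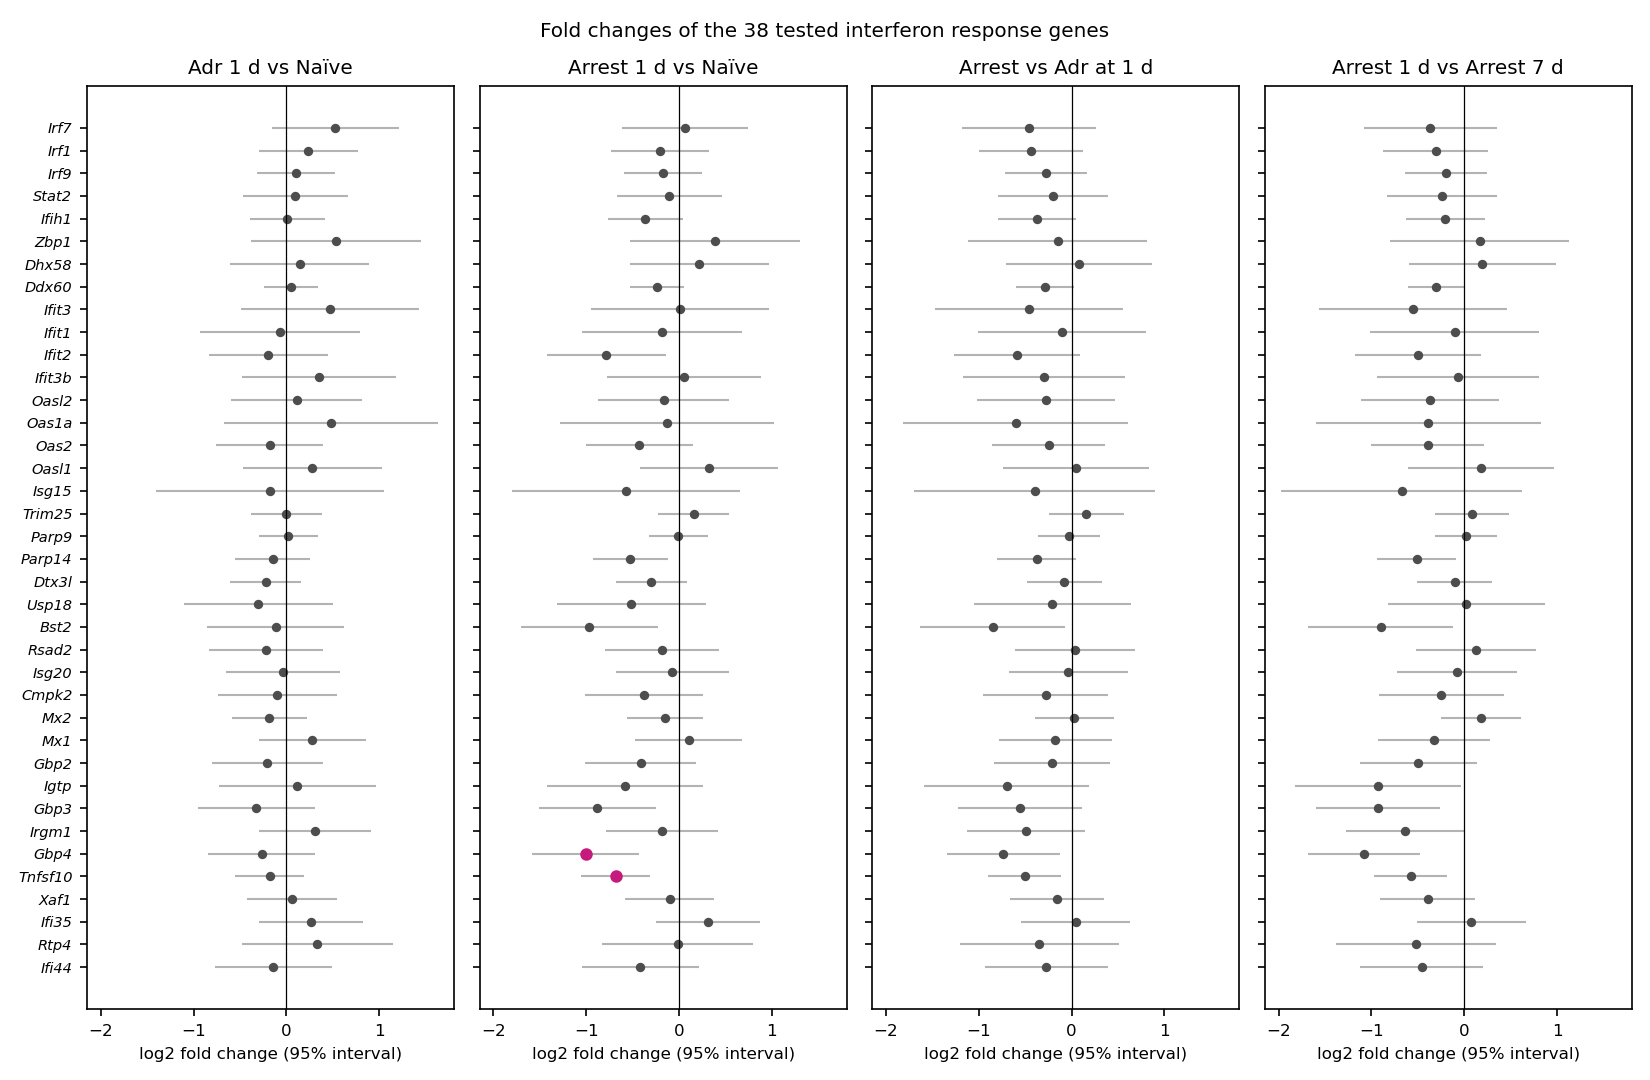
Log2 fold changes (points) with 95% intervals (lines) of the 38 tested interferon response genes in 4 comparisons that involve 1 day. Larger magenta points mark an adjusted p of at most 0.05, which only Gbp4 and Tnfsf10 reach, in Arrest against Naïve. Larger points are absent from the other 3 panels, where the intervals of most genes cross 0.

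Tnfsf10, which encodes the death ligand TRAIL, was called in Adr at 0.5 days and in Arrest at 1 day. The table places the gene on the plus strand of chromosome 3, from 27371177 to 27396576, in a genome build that the sources used here do not name. Naïve hearts had 4.14, 4.34, 3.45, 4.33 and 4.51 FPKM. Adr hearts had 2.10, 1.91, 2.55 and 0.824 FPKM at 0.5 days. All 4 of these libraries lay below all Naïve libraries. The share of all genes with groups apart in this way was not computed, so here and below such separations are descriptions only. Tnfsf10 fell by 0.90 on the log2 scale (SE 0.18, 95% interval -1.27 to -0.52, adjusted p = 0.032).

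Arrest hearts had 2.34, 1.72, 3.28 and 2.57 FPKM of Tnfsf10 at 0.5 days and 2.15, 2.50, 1.74 and 2.50 FPKM at 1 day. Every one of these 8 libraries was below the lowest Naïve library. The log2 fold change was -0.58 (SE 0.18, adjusted p = 0.072) at 0.5 days, which missed the threshold, and Tnfsf10 fell by 0.68 at 1 day (SE 0.18, 95% interval -1.05 to -0.31, adjusted p = 0.020). At 1 day the Adr hearts had 5.47, 3.89, 2.65 and 2.69 FPKM, all above the Arrest hearts, yet the difference between the arms, -0.50 (SE 0.19), did not pass (adjusted p = 0.68).

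Later groups of both arms overlapped the Naïve range. Adr hearts had 4.49, 6.46, 4.38 and 3.54 FPKM at 3 days and 5.54, 3.05, 3.37 and 2.81 FPKM at 7 days. Arrest hearts had 3.04, 2.92, 3.77 and 3.49 FPKM at 3 days and 4.19, 3.21, 4.17 and 3.64 FPKM at 7 days. None of these 4 groups passed against Naïve. The early calls were close to the threshold. In Adr at 0.5 days the call was lost without Naïve replicate 1, 4 or 5 (adjusted p = 0.061, 0.062 and 0.070), without Adr replicate 1, 2 or 4 (0.051, 0.058 and 0.15), with only the 2 groups in the model (0.11) and with replicate numbers as a block (0.087). In Arrest at 1 day it was lost without Arrest replicate 1 (0.057) or 3 (0.089) and with the number in the sample description as a covariate (0.059). All of these numbers in Arrest at 1 day are below all of those in Naïve, so the number and the group can hardly be told apart there. Tnfsf10 was lower in both groups in every one of these fits.

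The GTPases of the interferon response, which attack the membranes of vacuoles that hold intracellular microbes, include Gbp2, Gbp3, Gbp4, Igtp and Irgm1 here. Gbp2 and Gbp3 are neighbours on chromosome 3, and Gbp4 overlaps its relatives Gbp8 and Gbp9 in the table, so its fragments may be shared with them, as those of Igtp may be with Irgm2. Gbp4 had 2.62, 5.80, 2.63, 3.59 and 6.45 FPKM in Naïve hearts and 1.40, 1.96, 1.04 and 1.62 FPKM in Arrest hearts at 1 day. No Arrest library reached the lowest Naïve library. Gbp4 fell by 1.00 on the log2 scale (SE 0.28, 95% interval -1.58 to -0.43, adjusted p = 0.026).

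At 7 days Arrest hearts had 6.71, 3.99, 4.75 and 2.42 FPKM of Gbp4, each above all 4 Arrest libraries at 1 day (log2 fold change of 1 day against 7 days -1.08, SE 0.30, adjusted p = 0.052). Without replicate 3 of Adr at 3 days the same fold change passed (adjusted p = 0.034, where 3.99% of all genes were called). Arrest hearts had 1.44, 0.904, 3.34 and 2.44 FPKM at 0.5 days and 1.45, 1.78, 4.50 and 2.60 FPKM at 3 days. Both groups overlapped Naïve. Adr hearts had 2.41, 2.36, 1.48 and 1.24 FPKM at 0.5 days, 5.12, 3.85, 1.85 and 2.43 at 1 day, 3.71, 2.85, 3.49 and 1.23 at 3 days and 3.04, 3.54, 2.25 and 2.21 at 7 days. Only the group at 0.5 days lay wholly below Naïve (log2 fold change -0.82, SE 0.28, adjusted p = 0.18). The call in Arrest at 1 day was lost without Naïve replicate 2 or 5 (adjusted p = 0.066 and 0.079), without Arrest replicate 1 or 3 (0.071 and 0.10), with no filter on low values (0.055), with only the 2 groups in the model (0.059), with the description number as a covariate (0.082) and with replicate numbers as a block (0.087).

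Gbp2 had the highest mean of the GTPases, with 16.1, 16.4, 15.0, 14.2 and 11.3 FPKM in Naïve hearts. Arrest hearts had 8.26, 7.12, 21.2 and 10.8 FPKM at 0.5 days and 8.45, 9.41, 6.65 and 23.1 at 1 day. In each of these groups 3 libraries lay below Naïve and 1 lay above it, and neither difference passed (adjusted p = 0.52 and 0.44). Arrest hearts had 9.11, 10.7, 17.6 and 17.7 FPKM at 3 days and 18.2, 13.8, 16.7 and 13.2 at 7 days. Adr hearts had 11.6, 12.8, 8.46 and 9.08 FPKM at 0.5 days, 17.8, 12.0, 10.5 and 10.5 at 1 day, 10.5, 12.1, 23.2 and 10.2 at 3 days and 19.4, 18.1, 11.2 and 9.06 at 7 days. These groups overlapped Naïve, and no fold change of Gbp2 passed the test. Gbp3 had a log2 fold change of -0.88 in Arrest at 1 day (SE 0.31, adjusted p = 0.079). It passed in the same comparison without Arrest replicate 4 (adjusted p = 0.031) and with sample quality weights (adjusted p = 0.048), and it was named after its values were seen. Across all fits of this comparison, between 34 and 1947 genes in all were called. Igtp ranged from 3.95 to 18.1 FPKM and Irgm1 from 0.6996 to 11.8 FPKM over all libraries. All 5 GTPases were lower in Arrest at 1 day than in Naïve (median -0.58), than in Adr at 1 day (median -0.55) and than in Arrest at 7 days (median -0.93). With all libraries in the model, 1 of these 15 differences passed, that of Gbp4 against Naïve. These comparisons share the Arrest libraries at 1 day, so their common direction is not independent.

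**Figure D4:**
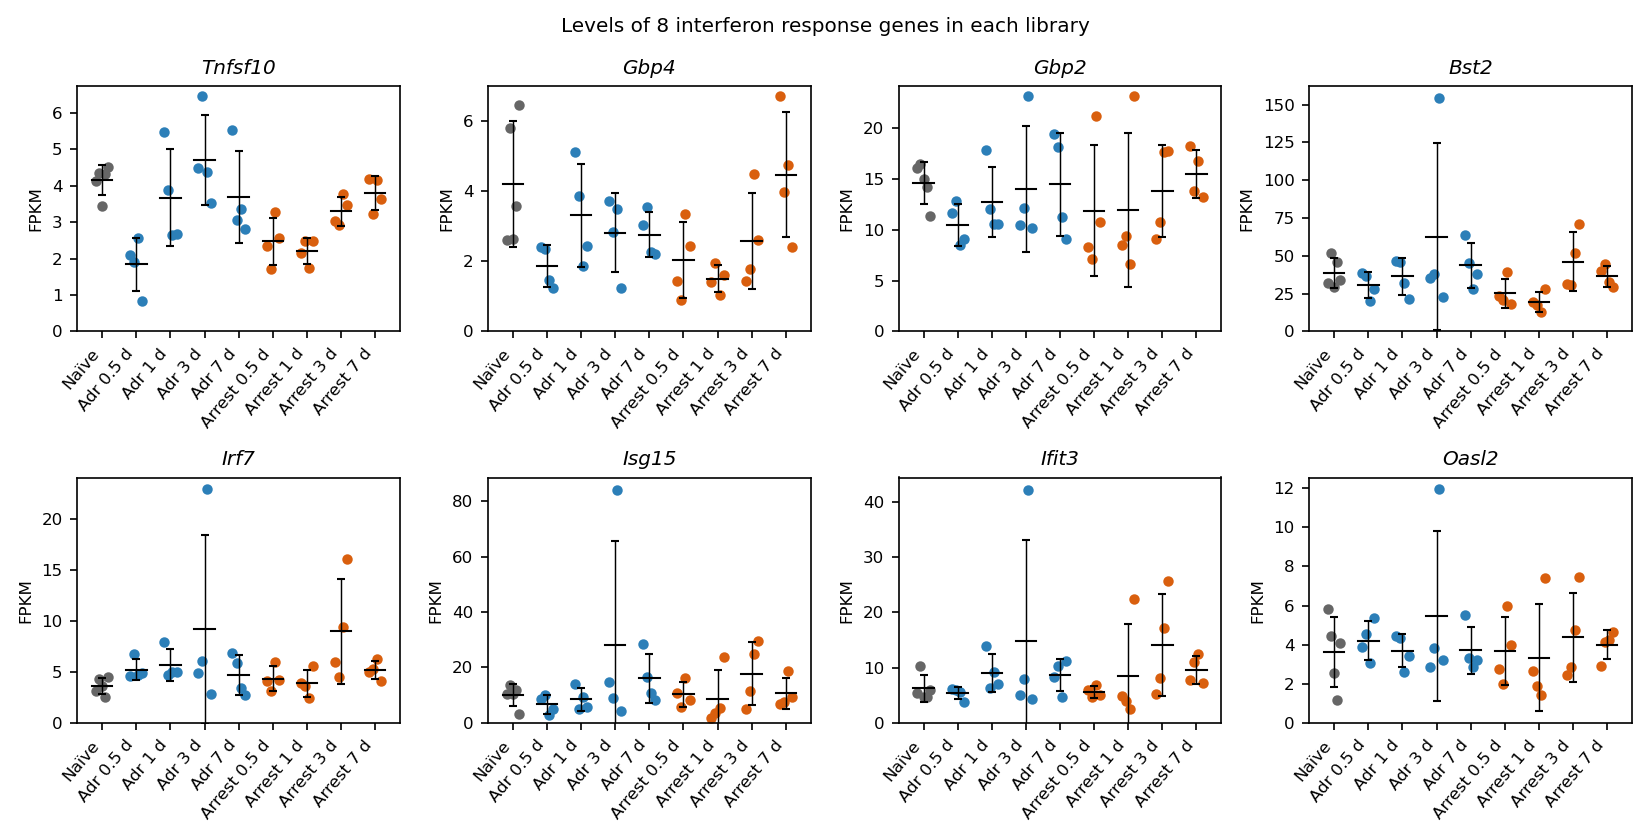
FPKM of 8 interferon response genes in each library (points), with the group mean (line) and standard deviation (bar, cut off at 0). Naïve is grey, Adr blue and Arrest orange. Tnfsf10 and Gbp4 in Adr at 0.5 days, Tnfsf10 in Arrest at 0.5 days and Tnfsf10, Gbp4 and Bst2 in Arrest at 1 day lie wholly below Naïve. Irf7 lies wholly above Naïve in Adr at 0.5 and 1 day and in Arrest at 3 days. Adr at 3 days, replicate 3, is far above the rest in Bst2, Irf7, Isg15, Ifit3 and Oasl2.

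Among the effectors that restrict viruses directly, Bst2, which encodes the protein tetherin that holds budding virions at the cell surface, had the highest level of all 39 genes. Naïve hearts had 31.9, 52.0, 29.3, 46.2 and 34.1 FPKM. Arrest hearts had 23.5, 20.5, 39.1 and 18.1 FPKM at 0.5 days and 19.4, 17.8, 12.9 and 28.2 FPKM at 1 day. All 4 libraries at 1 day lay below the lowest Naïve library. The log2 fold change at 1 day was -0.97 (SE 0.36, adjusted p = 0.0998). Without replicate 3 of Adr at 3 days, which widens the pooled spread of the model, the same fold change had an SE of 0.28 and passed (adjusted p = 0.025, where 10.4% of all genes were called).

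Later Arrest hearts had 31.1, 30.9, 51.6 and 71.2 FPKM of Bst2 at 3 days and 39.99, 44.5, 32.4 and 29.4 FPKM at 7 days, overlapping Naïve in both. Adr hearts had 38.9, 36.5, 19.9 and 28.2 FPKM at 0.5 days, 46.5, 46.1, 32.0 and 21.3 at 1 day, 35.5, 37.8, 155 and 22.8 at 3 days and 63.5, 45.4, 28.2 and 38.1 at 7 days. Each of these groups overlapped Naïve too. Of the other effectors, Rsad2 (viperin, which makes a chain-terminating nucleotide) ranged from 2.12 to 13.4 FPKM, its genomic neighbour Cmpk2 from 0.862 to 8.65, the exonuclease gene Isg20 from 1.20 to 7.98, and the dynamin-like GTPase genes Mx1 and Mx2 from 0 to 4.55 and from 0.163 to 1.83. None of these 5 passed in any comparison, and Mx1 had no fragment in 5 libraries. C57BL/6 mice are known to carry defective Mx genes.

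ISG15 is a small ubiquitin-like protein that is attached to other proteins during the interferon response. Isg15 had 10.6, 13.6, 10.4, 12.0 and 3.24 FPKM in Naïve hearts. Arrest hearts had 10.9, 5.65, 16.1 and 8.43 FPKM at 0.5 days, 1.82, 3.63, 5.54 and 23.9 at 1 day, 5.01, 11.5, 24.9 and 29.6 at 3 days and 6.84, 7.64, 18.7 and 9.35 at 7 days. Adr hearts had 8.79, 10.1, 3.00 and 4.87 FPKM at 0.5 days, 14.1, 5.08, 9.32 and 5.77 at 1 day, 14.7, 8.84, 83.8 and 4.48 at 3 days and 28.4, 16.7, 10.9 and 8.45 at 7 days. Levels differed by over 10-fold between mice of 1 group at 1 day in Arrest and at 3 days in Adr, and every group overlapped Naïve. No fold change passed, and the interval in Arrest at 1 day ran from -1.80 to 0.66. Among the partners of ISG15, the ubiquitin ligase gene Trim25 ranged from 3.86 to 13.7 FPKM and Usp18, which encodes the protease that removes ISG15, from 0 to 8.40. The ADP-ribosyltransferase genes Parp9 (2.45 to 7.19 FPKM) and Parp14 (1.76 to 9.84 FPKM) lie with Dtx3l (1.76 to 6.61 FPKM) on chromosome 16, and Dtx3l and Parp9 overlap in the table. Parp14 had a log2 fold change of -0.52 in Arrest at 1 day (SE 0.20, adjusted p = 0.10). Without replicate 3 of Adr at 3 days Parp14 passed (SE 0.17, adjusted p = 0.039, where 10.4% of all genes were called). It was named after its values were seen.

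The IFIT proteins bind viral RNA that lacks the methylated cap of the host. Ifit3 had 5.35, 10.4, 4.73, 4.74 and 5.97 FPKM in Naïve hearts. Arrest hearts had 5.94, 4.62, 6.88 and 4.98 FPKM at 0.5 days, 4.92, 3.99, 2.54 and 22.5 at 1 day, 5.22, 8.19, 17.1 and 25.6 at 3 days and 7.72, 10.99, 12.4 and 7.19 at 7 days. Adr hearts had 6.17, 5.95, 5.63 and 3.84 FPKM at 0.5 days, 13.9, 6.25, 9.19 and 6.98 at 1 day, 5.08, 8.01, 42.1 and 4.26 at 3 days and 8.27, 10.3, 4.74 and 11.2 at 7 days. The mean of Arrest at 1 day was set by 1 library, and no group was separate from Naïve. Ifit1 ranged from 1.81 to 18.9 FPKM, Ifit2 from 1.38 to 13.3 and Ifit3b from 0.496 to 8.87. None of the 4 passed in any comparison. The lowest adjusted p among them was that of Ifit2 in Arrest at 1 day (log2 fold change -0.78, SE 0.32, adjusted p = 0.13).

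The OAS enzymes make the second messenger that activates RNase L upon double-stranded RNA, whereas the OASL proteins bind RNA without that activity or with little of it. Oasl2 had the highest mean of the family, with 5.81, 4.45, 2.57, 1.18 and 4.08 FPKM in Naïve hearts. Arrest hearts had 2.75, 2.01, 5.98 and 3.96 FPKM at 0.5 days, 2.66, 1.86, 1.45 and 7.38 at 1 day, 2.45, 2.83, 4.74 and 7.46 at 3 days and 2.92, 4.15, 4.23 and 4.65 at 7 days. Adr hearts had 3.90, 4.52, 3.04 and 5.38 FPKM at 0.5 days, 4.42, 4.36, 2.62 and 3.40 at 1 day, 2.88, 3.81, 12.0 and 3.22 at 3 days and 5.50, 3.32, 2.86 and 3.22 at 7 days. The Naïve range held all of these libraries but 4, which had 5.98, 7.38, 7.46 and 12.0 FPKM, and no difference passed. Oas1a ranged from 0 to 23.6 FPKM, Oas2 from 1.27 to 6.36 and Oasl1 from 0.083 to 8.73. Oas3, the untested member, had no fragment in 11 libraries and a median of 9 fragments, and reached 3.67 FPKM (634 fragments) in replicate 3 of Adr at 3 days against at most 0.876 FPKM elsewhere.

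The sensors of foreign nucleic acid were low in these hearts. Ifih1, which encodes the double-stranded RNA sensor MDA5, had 1.62, 1.84, 2.53, 2.52 and 2.35 FPKM in Naïve hearts. Arrest hearts had 1.18, 1.92, 2.35 and 1.79 FPKM at 0.5 days, 1.07, 0.930, 1.89 and 2.12 at 1 day, 0.969, 1.62, 3.05 and 2.78 at 3 days and 1.03, 2.03, 2.50 and 1.94 at 7 days. Adr hearts had 1.96, 1.85, 1.99 and 1.69 FPKM at 0.5 days, 2.80, 2.14, 1.96 and 1.87 at 1 day, 2.06, 2.71, 3.93 and 1.85 at 3 days and 2.93, 1.84, 1.75 and 2.87 at 7 days. All 8 groups overlapped Naïve. Zbp1, which senses Z-form nucleic acid and can start necroptosis, ranged from 0 to 10.4 FPKM, Dhx58 (the helicase LGP2) from 0 to 7.39 and the helicase gene Ddx60 from 0.227 to 1.08. None of the 4 passed in any comparison.

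None of the 4 transcription factors of the response passed with all libraries in the model. Irf7, the factor that amplifies the type I response and is itself induced by it, had 3.12, 4.33, 3.60, 2.52 and 4.47 FPKM in Naïve hearts. Arrest hearts had 5.95, 4.49, 9.39 and 16.0 FPKM at 3 days. All 4 of these libraries were above the highest Naïve library, the second by little. The log2 fold change was 1.00 (SE 0.34, 95% interval 0.31 to 1.68, adjusted p = 0.17). Without replicate 3 of Adr at 3 days the same fold change had an SE of 0.26 and passed (adjusted p = 0.048, where 1.15% of all genes were called).

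Adr hearts had 4.60, 6.74, 4.66 and 4.92 FPKM of Irf7 at 0.5 days and 7.97, 4.73, 4.96 and 5.01 at 1 day, above all Naïve libraries in both groups (log2 fold changes 0.44 and 0.53, adjusted p = 0.59 and 0.48). They had 4.87, 6.03, 22.9 and 2.87 FPKM at 3 days and 6.90, 5.84, 3.41 and 2.70 at 7 days. Arrest hearts had 4.10, 3.11, 5.99 and 4.17 FPKM at 0.5 days, 3.95, 3.58, 2.43 and 5.55 at 1 day and 4.99, 5.31, 6.28 and 4.08 at 7 days. These 5 groups overlapped Naïve. Irf1 (1.73 to 8.17 FPKM), Irf9 (2.78 to 7.70 FPKM) and Stat2 (1.27 to 9.29 FPKM) did not pass in any comparison. Irf7 overlaps Phrf1 in the table and Irf9 overlaps Rnf31, and the strand that was counted is not given in the sources used here.

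The remaining genes were Xaf1, an antagonist of an inhibitor of apoptosis, which ranged from 1.52 to 6.32 FPKM, and Ifi35, Rtp4 and Ifi44. Ifi35 had 8.33, 13.9, 4.96, 3.11 and 7.77 FPKM in Naïve hearts. Adr hearts had 10.03, 8.33, 7.83 and 9.13 FPKM at 0.5 days, 9.45, 6.90, 10.7 and 7.205 at 1 day, 6.65, 9.52, 13.97 and 6.24 at 3 days and 9.43, 10.8, 8.88 and 10.7 at 7 days. Arrest hearts had 12.4, 7.94, 10.3 and 7.39 FPKM at 0.5 days, 7.42, 8.35, 9.73 and 9.63 at 1 day, 3.31, 8.93, 8.63 and 11.8 at 3 days and 9.65, 5.97, 10.3 and 7.71 at 7 days. Every library lay within the Naïve range or, in replicate 3 of Adr at 3 days, just above it, and no difference passed. Rtp4 ranged from 1.996 to 23.0 FPKM and Ifi44 from 0.249 to 5.42. None of the 4 passed in any comparison.

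Upstream of these genes, transcripts of interferons themselves were hardly present. Of 21 interferon genes in the table, 14 had no fragment in any library, none passed the filter, and no interferon gene had more than 10 fragments in any library (35 fragments over all 37 libraries). Ifnb1 had none, and Ifng had 7 fragments in 2 libraries. At this depth a change in interferon transcripts was not detectable.

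The receptors and signalling genes (15 of 15 tested) held 1 call upwards and 2 downwards in Arrest at 0.5 days, and 1 in each direction at 1 day, where 3.21% and 7.11% of all genes were called. Ifngr2, the signalling chain of the interferon gamma receptor, had 49.4, 45.2, 52.0, 65.8 and 46.9 FPKM in Naïve hearts. Arrest hearts had 26.6, 19.7, 31.6 and 23.4 FPKM at 0.5 days and 16.7, 20.5, 20.02 and 34.6 at 1 day. All 8 libraries were below Naïve. Ifngr2 fell by 1.01 (SE 0.23, adjusted p = 0.012) at 0.5 days and by 1.18 (SE 0.23, adjusted p = 0.0021) at 1 day.

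Adr hearts had 40.2, 42.2, 21.5 and 26.4 FPKM of Ifngr2 at 0.5 days and 43.1, 35.2, 30.1 and 28.1 at 1 day, also below all Naïve libraries, but neither group passed (log2 fold changes -0.69 and -0.60, adjusted p = 0.16 and 0.20). The difference between the arms at 1 day was -0.59 (SE 0.24, adjusted p = 0.71). The call in Arrest at 0.5 days was lost without Arrest replicate 2 (adjusted p = 0.070), and that at 1 day was kept without each library in turn. At 3 days Arrest hearts had 25.7 to 53.7 FPKM, overlapping Naïve. At 7 days they had 38.7 to 42.5 FPKM, still below all Naïve libraries (log2 fold change -0.36, SE 0.23, adjusted p = 0.97). The partner chain Ifngr1 (17.0 to 39.2 FPKM over all libraries) and the type I receptor chains Ifnar1 (3.67 to 11.7 FPKM) and Ifnar2 (4.19 to 9.88 FPKM) did not pass in any comparison.

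Socs3, an inhibitor of cytokine receptors that signal through STAT3, had 1.79, 2.21, 1.92, 4.49 and 2.28 FPKM in Naïve hearts. Arrest hearts had 10.1, 25.4, 11.6 and 9.90 FPKM at 0.5 days and 13.8, 6.89, 11.3 and 8.53 at 1 day. All 8 libraries were above Naïve. Socs3 rose by 2.05 (SE 0.42, adjusted p = 0.0074) at 0.5 days and by 1.66 (SE 0.42, adjusted p = 0.015) at 1 day, and it was 1.65 higher at 1 day than at 7 days in Arrest (SE 0.45, adjusted p = 0.044, lost in 7 of 9 fits that left out 1 library each). Its call was lost without Arrest replicate 2 at 0.5 days (adjusted p = 0.055) and without Arrest replicate 1 or 3 at 1 day (0.062 and 0.055). Socs1, the inhibitor that interferons themselves induce, was at 0 to 2.12 FPKM and did not pass. Il10rb, a receptor chain shared with interferon lambda, fell by 0.50 in Arrest at 0.5 days (SE 0.14, adjusted p = 0.0475), a call that was lost in 8 of 10 fits that left out 1 library each (adjusted p up to 0.20).

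**Figure D5:**
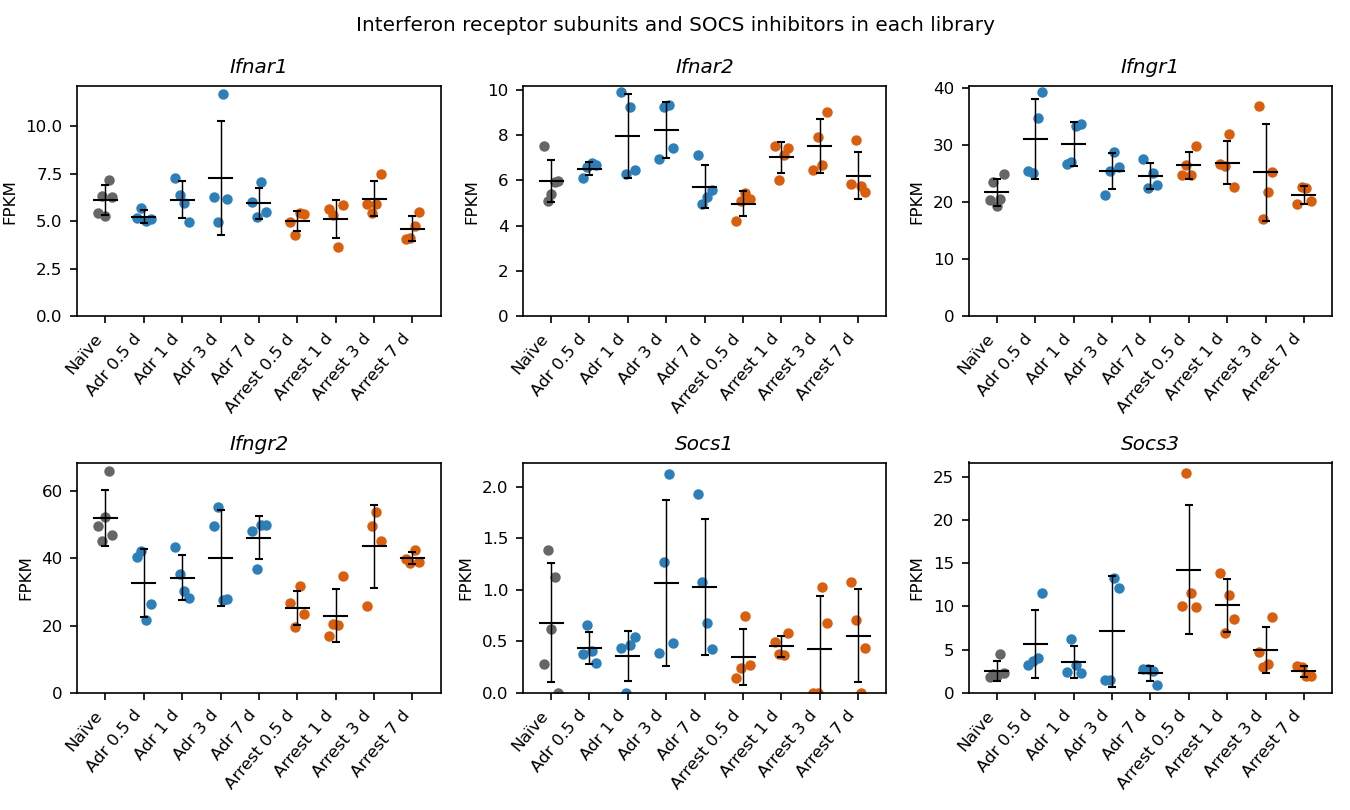
FPKM of the interferon receptor chains Ifnar1, Ifnar2, Ifngr1 and Ifngr2 and of the inhibitors Socs1 and Socs3 in each library (points), with the group mean (line) and standard deviation (bar, cut off at 0). Naïve is grey, Adr blue and Arrest orange. Socs3 lies above all Naïve libraries in Arrest at 0.5 and 1 day. Ifngr2 lies below all Naïve libraries there and also in Adr at 0.5 and 1 day and in Arrest at 7 days.

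Of 17 tested sensors and adaptors outside the 39 genes, Tbk1, the kinase that activates the interferon-inducing factor IRF3, rose by 0.64 in Arrest at 0.5 days (SE 0.14, adjusted p = 0.012) and by 0.59 at 1 day (SE 0.14, adjusted p = 0.0093), and the adaptor gene Myd88 rose by 0.74 at 1 day (SE 0.23, adjusted p = 0.045). In Adr at 1 day the log2 fold change of Tbk1 was 0.54, which missed the threshold (adjusted p = 0.064). It passed there in 1 of 10 fits that left out 1 library each and in 2 of 11 alternatives. The call of Tbk1 at 1 day was lost without Arrest replicate 1 or 3 (adjusted p up to 0.059), and that of Myd88 in 6 of 10 fits that left out 1 library each (adjusted p up to 0.14). The call of Myd88 was kept in only 4 of 11 alternatives (adjusted p up to 0.33).

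Of 63 further interferon targets that were tested, 3 rose in Arrest at 0.5 days, and 4 rose and 1 fell at 1 day, near the shares of 3.21% and 7.11% called over all genes. Ifitm2, which blocks viral entry, rose by 0.90 (SE 0.18, adjusted p = 0.0063) and 0.81 (SE 0.18, adjusted p = 0.0064), and Ifi205 rose by 1.74 (SE 0.46, adjusted p = 0.034) and 1.69 (SE 0.46, adjusted p = 0.023). Stat3, a transcription factor shared with the interleukin 6 response, rose by 0.91 (SE 0.15, adjusted p = 0.0012) and 0.64 (SE 0.15, adjusted p = 0.010), and Daxx rose by 0.70 at 1 day (SE 0.18, adjusted p = 0.016). The immunoproteasome gene Psmb9 fell by 0.93 at 1 day (SE 0.28, adjusted p = 0.041), a call that was lost in 7 of 10 fits that left out 1 library each (adjusted p up to 0.13). Against Arrest at 7 days, Ifitm2 and Ifitm1 were higher at 1 day by 0.80 (SE 0.19, adjusted p = 0.025) and 1.32 (SE 0.35, adjusted p = 0.044), calls that were lost in 5 and 6 of 9 such fits. The calls of Ifi205 were lost in 5 of 10 such fits at 0.5 days and 4 of 10 at 1 day, that of Daxx in 2 of 10, and that of Stat3 at 1 day in 1 of 10 (adjusted p = 0.051, without Arrest replicate 3). At 1 day the call of Daxx was also lost with scaling by counted fragments (0.053) and with only the 2 groups in the model (0.058), that of Tbk1 with only the 2 groups (0.080), and that of Ifitm2 under quantile scaling (0.073). The call of Psmb9 was lost with scaling by counted fragments and with no filter, and was kept in 7 of 11 alternatives (adjusted p up to 0.087). With the description number as a covariate, the calls at 1 day of Ifngr2, Socs3, Tbk1, Myd88, Ifitm2, Stat3, Daxx and Psmb9 were lost (adjusted p up to 0.38) and that of Ifi205 was kept. This number does not overlap between Arrest at 1 day and Naïve, so that fit can hardly tell it apart from the group. With all libraries in the model as reported, none of these lists had a call in the 4 comparisons of Adr with Naïve. Over the 63 targets the median log2 fold change was -0.10 in Arrest at 1 day (39 lower) and 0.11 in Adr at 1 day (17 lower).

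Markers of other cell types moved with some of these results, and their part was not tested. In Arrest at 1 day the summed level of 5 B cell markers was 2.19 to 5.97 FPKM, against 5.81 to 18.4 FPKM in Naïve, and Ighm, which makes up most of that sum, fell by 1.78 (SE 0.34, adjusted p = 0.0022). The other B cell markers were low (medians of at most 0.705 FPKM), and of the 3 tested markers 2 were lower and 1 was higher (median -0.19). The summed T and NK cell markers were 0.466 to 0.916 FPKM against 0 to 4.19 FPKM in Naïve, with none called of 3 tested of 8. The macrophage sum was 238 to 355 FPKM against 173 to 292 FPKM, with Cd163 alone called of 8 (log2 fold change 1.15, SE 0.35, adjusted p = 0.039). The cardiomyocyte sum was 7849 to 9852 FPKM against 6211 to 8014 FPKM with none called of 6. Of 6 endothelial markers Kdr fell by 0.92 (SE 0.22, adjusted p = 0.011) and Cdh5 by 0.42 (SE 0.11, adjusted p = 0.018), while the other 4 had fold changes above 0 (median of all 6, 0.11). Neutrophil (4 of 7 tested), monocyte, fibroblast and red blood cell markers held no call, although all 4 tested neutrophil markers had fold changes above 0 (median 1.26) and all 5 red blood cell markers below 0 (median -0.63). Siglech, which marks the plasmacytoid dendritic cells that make most type I interferon, was at 0 to 0.716 FPKM in all libraries and Ly6g, which marks neutrophils, had no fragment.

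Glucocorticoids, the stress hormones, are known to dampen interferon signalling. Of 10 tested glucocorticoid targets, Cdkn1a (2.01, SE 0.44) and Fkbp5 (2.13, SE 0.57) rose in Arrest at 0.5 days, and Fkbp5 (2.28, SE 0.57), Zbtb16 (1.88, SE 0.54) and Cdkn1a (1.72, SE 0.44) rose in Arrest at 1 day, with adjusted p between 0.011 and 0.036. None was called in Adr at any time, but the levels in some Adr hearts were as high. Fkbp5 was at 2.02 to 18.2 FPKM in Adr and 5.52 to 17.4 FPKM in Arrest at 0.5 days, and Zbtb16 at 1.77 to 14.8 FPKM in Adr and 10.1 to 17.7 FPKM in Arrest at 1 day, and no difference between the arms passed. Whether these bear on the interferon response genes was not tested.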

How the data were processed

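RNA of 37 left ventricles was sequenced by Novogene as paired reads, and the study's methods name FastQC for read quality and HISAT2 for alignment. The genome build, annotation, counting tool and counted strand are not given in the sources used here. The authors deposited 1 table of FPKM values, with gene symbols, lengths and coordinates. All per-sample columns were used. Multiplied by length, the FPKM values became whole fragments in 100% of the values up to 2000 fragments (tolerance 0.05), which gave 13.2 to 30.2 M fragments per library. Rescaling by median ratios gave a factor of 1.013 in every library, so the deposited values were already on a common median-ratio scale. The size that divided a library was thus not simply its count of fragments. A count of 1 fragment per kilobase stood for 0.0414 FPKM in replicate 3 of Adr at 3 days (17.2 M fragments). It stood for 0.0639 FPKM in Naïve replicate 1 (15.7 M fragments). Among 58 pairs of libraries of 1 group, none were copies (lowest chi-square per gene 11.7). The labels number libraries of a group as replicates, and p-values measure the spread between them.

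Values were converted to log2(FPKM + 1), and genes reaching 0.5 FPKM in 4 or more libraries (16530) were fitted by limma (version 3.58.1, R 4.3.3) with 1 mean per group, no covariate and a trended eBayes prior, with Benjamini-Hochberg adjustment within each of 14 comparisons. The script was tested on simulated data. Groups came from the treatment labels. The 39 genes, their roles and the other lists (interferon pathway, glucocorticoid targets, markers of 10 cell types) were chosen with earlier results of these data known, and lists are described by counts and medians. Values in every library are given for members called in any comparison and for the gene with the highest mean in each role. The Adr and Arrest comparisons with Naïve share the Naïve libraries. Alternatives were quantile scaling, scaling by counted fragments, a pseudocount of 0.1, no filter, a filter on a mean of 1 FPKM, a correction for the trend with gene length (span 0.5), only the 2 compared groups, sample quality weights, sex read from Xist and Ddx3y or the number in the sample description (whose meaning is not given) as a covariate, replicate numbers as a block, and each library left out in turn. Promoters were RefSeq sequences of GRCm38.p6. Their coordinates are not those of the table, where 1485 of 52073 shared genes start at the same base as in a GRCm38 annotation. Figures were drawn with matplotlib.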

Additional observations from a re-analysis of the deposited data

Results flagged for a closer look

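In groups of 4 or 5 libraries, the highest or lowest value was compared with the rest by Dixon's ratio for the 10 genes whose values are given in every library and for the median over all 38 tested genes, which made 99 groups. For independent groups of normally distributed values, chance alone flags about 1 group in 20. Here the genes were compared as FPKM, which is skewed towards high values, and the groups reuse the same libraries. The 12 groups that were flagged, each with a library above the others, can therefore not be set against that rate.

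Adr at 3 days, replicate 3, accounted for 6 of them. It had 42.1 FPKM of Ifit3 (4.26 to 8.01 in the other 3 libraries), 83.8 FPKM of Isg15 (4.48 to 14.7), 12.0 FPKM of Oasl2 (2.88 to 3.81), 23.2 FPKM of Gbp2 (10.2 to 12.1), 155 FPKM of Bst2 (22.8 to 37.8) and 22.9 FPKM of Irf7 (2.87 to 6.03). The library also had the lowest mitochondrial share and the highest macrophage and monocyte sums of all 37, and their part was not tested.

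Arrest at 1 day, replicate 4, had 22.5 FPKM of Ifit3 (2.54 to 4.92 in the other 3), 23.9 FPKM of Isg15 (1.82 to 5.54) and 23.1 FPKM of Gbp2 (6.65 to 9.41), whereas its Tnfsf10 (2.50 FPKM) and Gbp4 (1.62 FPKM) lay among the others. Single libraries also stood out for Ifit3 in Naïve replicate 2 (10.4 FPKM against 4.73 to 5.97), for Irf7 in Adr at 0.5 days, replicate 2 (6.74 FPKM against 4.60 to 4.92), and for Irf7 in Adr at 1 day, replicate 1 (7.97 FPKM against 4.73 to 5.01).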

How the results depend on the processing

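Among 14 comparisons, 9 had none of the genes called in any fit. The numbers called moved in the others, and the cause was not tested. In Adr at 0.5 days against Naïve (1 called) there were 0 with only the 2 groups and 0 with replicate numbers as a block, and 0 to 1 with a library left out. In Arrest at 0.5 days (0 called) there was 1 with the description number as a covariate, and 0 to 1 with a library left out. In Arrest at 1 day (2 called) there was 1 without a filter, 1 with only the 2 groups, 5 with sample quality weights (Bst2, Gbp3 and Parp14 in addition), 0 with the description number, where 34 genes in all were called, 1 with the block, and 0 to 4 with a library left out. In Arrest at 3 days (0 called) there were 0 to 1 with a library left out. In Arrest at 1 against 7 days (0 called) there was 1 with the mean filter, 1 with only the 2 groups, 6 with quality weights, 1 with sex as a covariate, and 0 to 1 with a library left out. The number called over all genes moved with the fit too, from 34 to 1947 in Arrest at 1 day and from 41 to 1815 at 1 against 7 days.

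The spread of the library medians was 0.34, and 0.27 without replicate 3 of Adr at 3 days. Medians over the 38 genes moved by less than 0.27 except in the comparisons that use that library at 3 days. That of Arrest against Adr at 1 day stayed below 0 in all 20 fits (-0.51 to -0.13), as did that of Arrest at 1 against 7 days (-0.48 to -0.22). That of Adr at 3 days against Naïve (0.24) was -0.09 without that library and -0.04 with sample quality weights, and that of Arrest against Adr at 3 days (-0.12) was 0.17 and 0.19, so both changed sign. No called gene changed direction. Counts over all genes moved more, from 34 to 1947 in Arrest at 1 day (1176 as reported), 125 to 903 at 0.5 days (531), 0 to 188 at 3 days (23), 41 to 1815 at 1 against 7 days (312), 3 to 363 in Adr at 0.5 days (31), 0 to 416 at 1 day (114) and 0 to 239 in Adr at 1 against 7 days (7). Samples of equal replicate number shared only that number (mean correlation of their deviations -0.008 over 144 pairs, against 0.003 over 464 pairs of unequal number), so the block is given as an alternative only. It also ended the calls of Ifi205, Il10rb, Myd88 and Psmb9 against Naïve and of Socs3 in Arrest at 1 against 7 days.

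Depth limited Oas3, Mx1, Zbp1 and the interferon genes, which had few fragments or none in several libraries. With 4 libraries a group the median gene had a 95% interval of about ±0.64 (log2), and the model's spread is wider for genes that replicate 3 of Adr at 3 days raises (median residual SD of the 38 genes 0.47 with it and 0.41 without).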
